A study of Mus musculus with 37 samples.

Results

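Bile acids are made in the hepatocyte by oxidation of cholesterol, and 9 genes of this route were followed here in the livers of mice given HFPO-DA. The genes were taken by name: Cyp7a1, Cyp8b1, Cyp27a1 and Cyp7b1, which hydroxylate the sterol, Hsd3b7 and Akr1d1, which modify its ring, Slc27a5 and Baat, which conjugate the finished acid, and Fgfr4, a receptor that feeds back on synthesis. All of their probes were used, which gave 11 probes of the 30146 on the whole-transcriptome panel, for 9 of its 21450 genes. All 11 passed the filter on low counts, as did 18570 probes in all.

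HFPO-DA, the ammonium salt of a short perfluorinated ether acid, was given by daily oral gavage in deionized water to wild-type CD1 mice of the outbred stock Crl:CD1(ICR), in a reproduction study. RNA was read from formalin-fixed, paraffin-embedded liver sections with TempO-Seq, in which pairs of short probes are ligated on the RNA and counted. The 8 groups were 5 males and 5 females on vehicle (a dose of 0), 5 of each at 0.1 mg/kg body weight a day, 5 males and 4 females at 0.5 mg/kg, and 4 of each at 5 mg/kg, each mouse being 1 library. Males were about 6 weeks old at the first dose and received 84 to 85 doses, 70 days of them before mating and 14 days through it. Females were about 11 weeks old and received 53 to 65 doses, from 14 days before mating to lactation day 20 or 21. Sex therefore cannot be told apart from age, number of doses, pregnancy and lactation. Expression is given as CPM, the usual count rate of a probe relative to the scaled size of its library, and a difference as a log2 fold change with its standard error (SE). A probe was called when its adjusted p in edgeR's quasi-likelihood test was under 0.10, the threshold the study used. Levels of a gene are compared between mice for 1 probe, never between genes, because probes differ in how well they capture their RNA. The summed CPM of a gene list adds all probes of its genes, so the probes with the most counts dominate it.

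In the classic pathway, Cyp7a1 performs the first and rate-limiting hydroxylation of cholesterol, and Cyp8b1 adds the hydroxyl group that distinguishes cholic acid. The alternative pathway starts with side chain oxidation by the mitochondrial enzyme Cyp27a1 and goes on through Cyp7b1. Fgfr4, with its co-receptor Klb, receives the intestinal signal Fgf15 and restrains Cyp7a1, and the nuclear receptors Nr1h4 (FXR), Nr0b2 (SHP), Hnf4a and Nr5a2 are known regulators of the pathway.

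Promoter sequence was at hand for 5 of the 9 genes, from RefSeq on GRCm38.p6. Shown are the 250 bases before the start site for the gene with the largest fall in males, Akr1d1, for a gene of the classic pathway that was called at no dose, Cyp8b1, and for Cyp27a1, which fell in males. Sites were searched on both strands as AGGTCA, the element that many nuclear receptors read, as a direct repeat of AGGTCA with 1 base between the copies, and as CAAGGNCA, the element of Nr5a2, with N any base. Capitals mark the matches.
Akr1d1, chr6:37529923-37530172, plus strand: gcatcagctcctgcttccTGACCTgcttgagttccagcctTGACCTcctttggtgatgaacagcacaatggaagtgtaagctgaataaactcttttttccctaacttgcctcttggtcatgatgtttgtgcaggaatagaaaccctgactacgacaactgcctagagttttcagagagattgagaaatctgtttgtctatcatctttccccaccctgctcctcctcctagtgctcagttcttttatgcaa
Cyp8b1, chr9:121916306-121916555, minus strand: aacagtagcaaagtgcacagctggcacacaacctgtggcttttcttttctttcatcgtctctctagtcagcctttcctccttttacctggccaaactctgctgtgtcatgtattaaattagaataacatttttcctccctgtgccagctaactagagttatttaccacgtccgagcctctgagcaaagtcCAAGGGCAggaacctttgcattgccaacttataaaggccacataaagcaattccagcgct
Cyp27a1, chr1:74713285-74713534, plus strand: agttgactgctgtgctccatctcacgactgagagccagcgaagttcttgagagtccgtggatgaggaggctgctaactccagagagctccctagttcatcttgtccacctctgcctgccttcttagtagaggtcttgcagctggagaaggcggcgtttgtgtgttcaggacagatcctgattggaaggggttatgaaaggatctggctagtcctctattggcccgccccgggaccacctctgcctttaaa
The Akr1d1 window held AGGTCA on the other strand at -232 to -227 and at -210 to -205 from the start. The Cyp8b1 window held CAAGGNCA at -60 to -53, and no searched element was in the Cyp27a1 window. Among 32851 promoter windows of this length, 14.0% held AGGTCA, 5.53% CAAGGNCA and 0.0335% the direct repeat. These matches describe letters only, and no binding was measured.

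Library totals ran from 2101495 to 10548222 counts in males and from 7952605 to 13878254 in females. The 4 smallest libraries, of at most 4147445 counts, were all male, replicates 1 and 3 at 5 mg/kg, replicate 2 at 0.5 mg/kg and replicate 4 at 0.1 mg/kg. As a check of exposure, Ehhadh, a peroxisomal beta-oxidation enzyme, rose at 5 mg/kg by 5.51 ± 0.30 (log2, SE) in males and by 5.03 ± 0.29 in females. Ddx3y, a Y-linked gene, had at least 6.80 CPM in every male and at most 0.183 CPM in every female.

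Calls were made only at 5 mg/kg against control, and none of the 9 genes was called at 0.1 or 0.5 mg/kg. In males at 5 mg/kg, 6 of the 11 probes were lowered and 0 raised, in 6 of the 9 genes: Akr1d1, Cyp7b1, Fgfr4, Slc27a5, Cyp27a1 and Baat. Over all probes tested, 12.7% were called in this comparison and 8.49% were lowered. The median log2 fold change of the 9 genes' most abundant probes was -0.97, beside -0.12 for all probes tested. In 5 of the 11 probes every treated male lay below every control, which held for 4.8% of all probes. In females at 5 mg/kg, 3 of the 11 probes were lowered and 0 raised, in Slc27a5, Baat and Fgfr4, against 4.52% called and 2.26% lowered over all probes. The median of the 9 genes' most abundant probes in females was -0.61, beside -0.01 for all probes. In 3 of the 11 probes no treated female reached a control, which held for 4.31% of all probes. In bulk tissue, fewer hepatocytes and less RNA in each hepatocyte cannot be told apart.

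**Figure D1:**
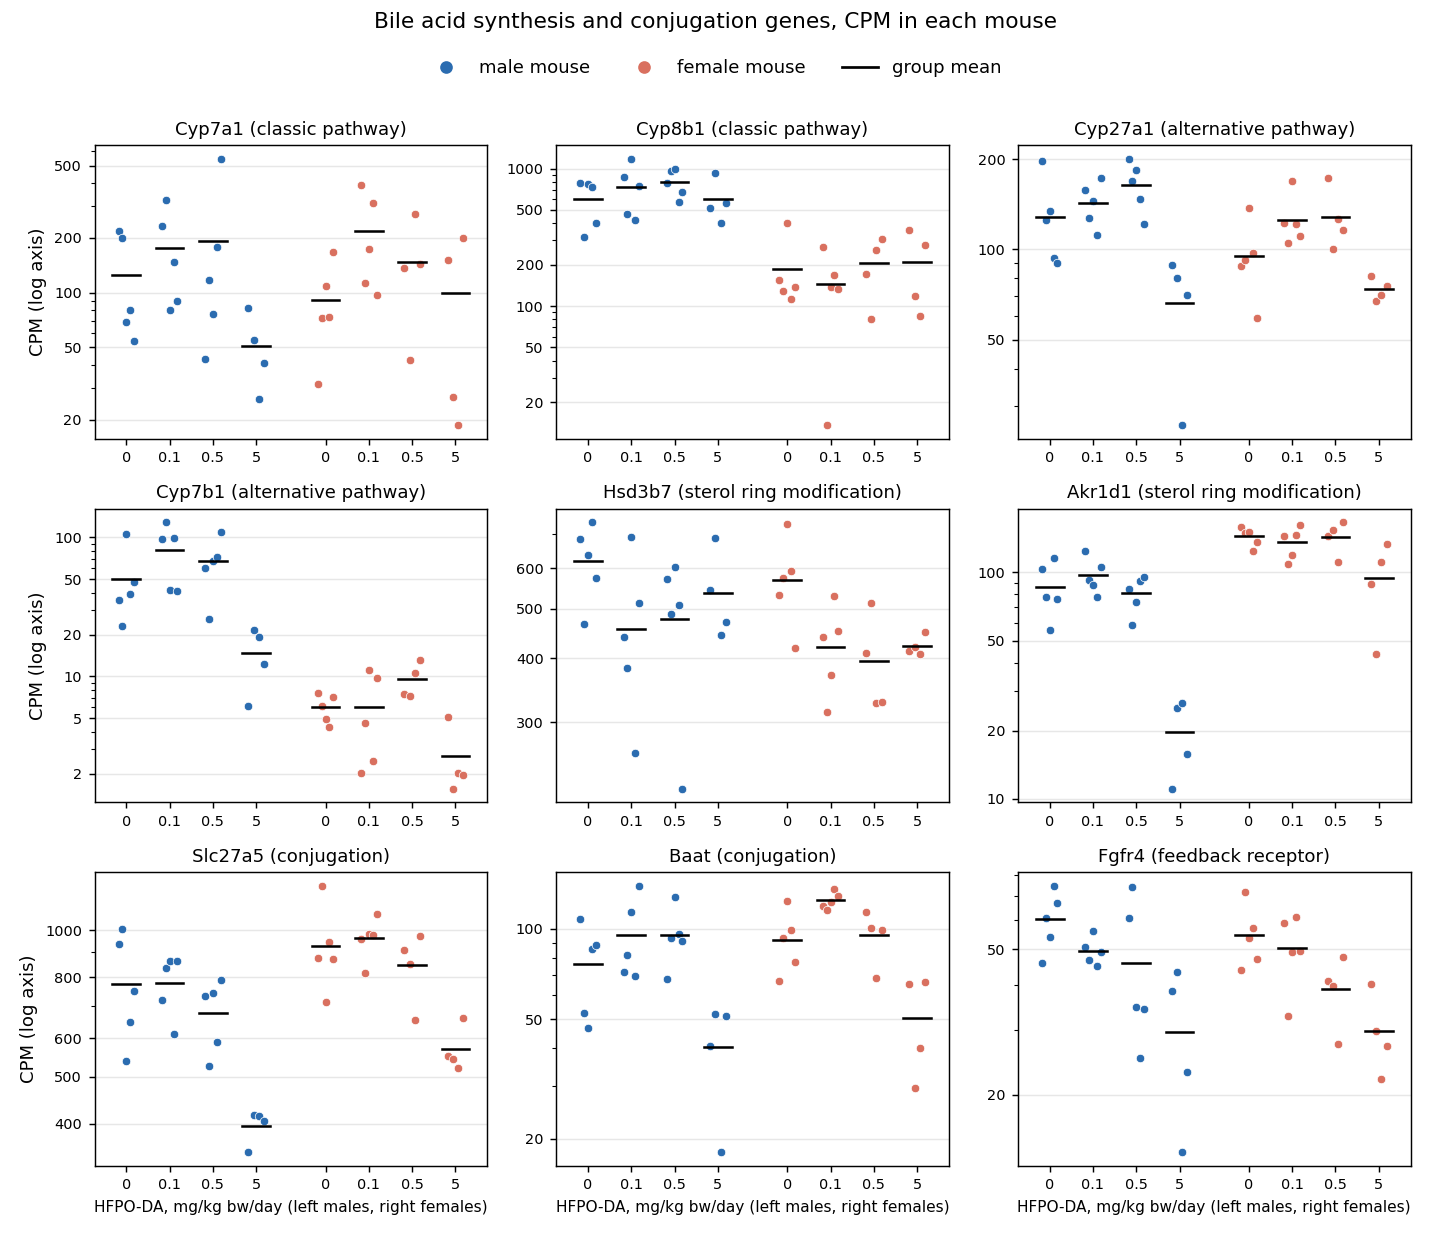
CPM of the most abundant probe of each of the 9 genes, 1 panel per gene, in each mouse (points) with the group mean (bar); the y axis is logarithmic and differs between panels, and the x axis gives the dose in mg/kg bw/day, males at left and females at right. The 4 males at 5 mg/kg lie between 11.1 and 26.6 CPM for Akr1d1, below all 5 control males, and Cyp8b1 shows no such shift in either sex.

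Cyp7a1 (chromosome 4, 6265612-6275633, minus strand, GRCm38) varied widely within groups. The control males had 54.4, 69.3, 80.3, 199 and 219 CPM. The 4 males at 5 mg/kg had 25.9, 40.8, 54.6 and 82.8 CPM. Treated males sat at the low end, but the highest of them was above 3 of the 5 controls. The log2 fold change was -1.28 ± 0.63 (SE), with a 95% interval from -2.55 to -0.01, and the adjusted p was 0.208, or 0.077 with no filter on low counts. In females the controls had 31.4, 72.9, 73.7, 109 and 168 CPM and the 4 females at 5 mg/kg had 18.6, 26.6, 152 and 200.1 CPM. Of the treated females 2 were below all 5 controls, 1 was above 4 of them and 1 was above all 5. Their log2 fold change was 0.13 ± 0.60, with an interval from -1.09 to 1.34 that leaves room for a change in either direction. Cyp7a1 is known to be expressed with the time of day. Of 13 tested circadian clock genes, 2 were lowered in males at 5 mg/kg by at least 1 probe, beside 8.49% of all probes taken singly. These were Per1, with 7 to 34 counts in the control libraries and 0 to 1 in the treated ones, and Ciart, at -3.15 (log2, adjusted p = 0.0483). The summed CPM of the clock genes ran from 127 to 953 in control males and from 162 to 343 at 5 mg/kg. Their part in the Cyp7a1 values was not tested.

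Cyp8b1 (chromosome 9, 121914356-121916305, minus strand) has 2 probes, and neither was called at any dose. With the more abundant probe the control males had 321, 404, 735, 768 and 789.8 CPM. The males at 5 mg/kg had 402, 518, 563 and 929 CPM, a range that overlapped that of the controls. Their log2 fold change was 0.00 ± 0.46, with an interval from -0.92 to 0.92. In females the group means were 186 ± 119.7 CPM (SD, n = 5) in controls and 209 ± 128 (n = 4) at 5 mg/kg, and the log2 fold change was 0.16 ± 0.46. The other probe gave -0.08 ± 0.47 in males and 0.23 ± 0.47 in females.

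Cyp27a1 (chromosome 1, 74713574-74737892, plus strand) fell in males. The control males had 89.9, 93.4, 126, 134 and 198 CPM. At 5 mg/kg the values were 25.9, 70.6, 80.3 and 88.9 CPM. All 4 treated males were below all 5 controls, the highest of them only just. This gave a log2 fold change of -0.94 ± 0.25 (adjusted p = 0.0128), to 51.8% of the control level. The lowest value was that of replicate 3, the library with the fewest counts, and without it the log2 fold change was -0.68 (adjusted p = 0.0782). In females the controls had 59.2, 88.2, 92.2, 97.0 and 138 CPM and the treated mice 67.3, 70.7, 75.3 and 81.8 CPM. The treated females lay close together and inside the range of the controls, and the log2 fold change of -0.36 ± 0.25 was not called (adjusted p = 0.720).

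Cyp7b1 (chromosome 3, 18071950-18243338, minus strand), the oxysterol hydroxylase of the alternative pathway, fell in males. The control males had 23.1, 35.5, 39.1, 48.2 and 107 CPM. The males at 5 mg/kg had 6.13, 12.4, 19.1 and 21.7 CPM, all below the lowest control. Cyp7b1 thus had a log2 fold change of -1.76 ± 0.46 (adjusted p = 0.0105), to 29.4% of the control level. The control females had 44 to 85 counts of Cyp7b1, or 4.33, 4.96, 6.14, 7.08 and 7.54 CPM. The females at 5 mg/kg had 1.55, 1.96, 2.02 and 5.13 CPM, so that 3 lay below all controls and replicate 1 among them. In females a log2 fold change of -1.19 ± 0.48, with an interval from -2.17 to -0.22, was not called (adjusted p = 0.236). Without replicate 1 it was -1.70 (adjusted p = 0.0864).

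Hsd3b7 (chromosome 7, 127800604-127803802, plus strand), which oxidizes a ring hydroxyl group after the first hydroxylation, was called at no dose. Its mean in males was 620.5 ± 104 CPM (SD, n = 5) in controls, 457 ± 159 (n = 5) at 0.1 mg/kg, 478 ± 150.5 (n = 5) at 0.5 mg/kg and 537 ± 108 (n = 4) at 5 mg/kg. In females it was 570.3 ± 113 (n = 5), 421 ± 81.9 (n = 5), 395 ± 87.9 (n = 4) and 423 ± 19.2 (n = 4). All 6 treated means were below their control mean, with log2 fold changes between -0.21 and -0.53, and all 6 overlapped the controls. At 5 mg/kg the log2 fold change was -0.21 ± 0.22 in males and -0.43 ± 0.22 in females.

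Akr1d1 (chromosome 6, 37530173-37568815, plus strand), the reductase that acts on the ring double bond, had the lowest log2 fold change of the 9 genes in males. The control males had 55.5, 76.3, 78.1, 103 and 116 CPM. The males at 0.5 mg/kg had 58.8, 74.1, 84.5, 91.4 and 95.5 CPM, within the span of the controls. The males at 5 mg/kg had 11.1, 15.8, 25.3 and 26.6 CPM, all far below the lowest control. At 5 mg/kg this was a log2 fold change of -2.13 ± 0.26 (adjusted p = 8.68e-08), to 22.9% of the control level. In females the controls had 124, 136, 149.5, 151 and 159 CPM and the treated mice 43.7, 88.7, 111 and 134 CPM. Only replicate 4 of the treated females overlapped the controls. Their log2 fold change was -0.61 ± 0.24 and was not called (adjusted p = 0.213), whereas without replicate 4 it was -0.83 (adjusted p = 0.0740) and DESeq2 gave -0.60 (adjusted p = 0.0809).

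Slc27a5 (chromosome 7, 12988346-12998192, minus strand), the ligase that joins bile acids to coenzyme A before conjugation, fell in both sexes. The control males had 538, 649, 748, 935 and 1005 CPM. At 5 mg/kg they had 349, 405, 414 and 416 CPM, all below the controls and close together. The log2 fold change was -0.97 ± 0.17 (adjusted p = 0.000108), to 51.1% of the control level. The control females had 712, 872, 878, 944.7 and 1234 CPM. The females at 5 mg/kg had 521, 543, 550.3 and 660.2 CPM, again all below the controls. In females this was -0.71 ± 0.17 (adjusted p = 0.0082), and it was called whichever mouse was left out, in both sexes.

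Baat (chromosome 4, 49489422-49506557, minus strand), which transfers the bile acid from coenzyme A to taurine or glycine, has 2 probes. With the more abundant one the control males had 46.7, 52.4, 86.0, 88.2 and 108 CPM and the males at 5 mg/kg 18.002, 40.8, 51.5 and 51.9 CPM. The upper 2 treated males were above the lowest control. The log2 fold change was -0.90 ± 0.27 (adjusted p = 0.0304). Replicate 3 was the lowest here too, and without it the value was -0.67 and the call was lost (adjusted p = 0.142). The control females had 67.0, 77.3, 93.0, 99.4 and 124 CPM and the females at 5 mg/kg 29.5, 40.1, 65.4 and 66.8 CPM. These groups did not overlap, although the highest treated female was just below the lowest control. For the females it was -0.87 ± 0.27 (adjusted p = 0.0644), and the call was lost without control replicate 2 (0.109), 3 (0.178) or 4 (0.122) or treated replicate 2 (0.299) or 3 (0.251), with the adjusted p in brackets. The other Baat probe had 0 to 10.97 CPM over all mice at 0 and 5 mg/kg and was not called, at -0.39 ± 0.64 in males and -1.09 ± 0.66 in females.

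Fgfr4 (chromosome 13, 55152640-55168759, plus strand) fell in both sexes. The control males had 46.0, 53.9, 61.0, 67.1 and 74.7 CPM. At 5 mg/kg they had 13.9, 23.02, 38.4 and 43.4 CPM, all below the controls. The log2 fold change was -1.02 ± 0.28 (adjusted p = 0.0142), and it was -0.79 (adjusted p = 0.0813) without replicate 3. The control females had 43.9, 47.0, 53.8, 57.3 and 71.8 CPM and the treated females 22.1, 27.1, 29.8 and 40.3 CPM, without overlap. For the females it was -0.88 ± 0.27 (adjusted p = 0.0666), and the call was lost without control replicate 2 (0.200) or 4 (0.117) or treated replicate 2 (0.149), 3 (0.274) or 4 (0.168), with the adjusted p in brackets. The mean of Fgfr4 was lower at each higher dose, in males 60.5, 49.6, 45.8 and 29.7 CPM and in females 54.8, 50.4, 38.9 and 29.8 CPM from 0 to 5 mg/kg, but only 5 mg/kg differed from control by the test.

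At 0.1 mg/kg none of the 11 probes passed the edgeR test in either sex, and over all probes 0% passed it in males and 0% did so in females. The study, which used DESeq2, did report a small number of changed genes in each sex at 0.1 mg/kg, and more at 0.5 mg/kg. The next dose, 0.5 mg/kg, gave no call among the 11 either, beside 0.625% of all male tests and 0.113% of all female tests. DESeq2 likewise called 0 of the 11 at these doses. At an unadjusted p under 0.05 edgeR gave 1 probe in males at the lower of these doses and 0 at the higher, against 2 and 1 in females. Over all probes these shares were 7.14% and 10.3% in males and 2.38% and 4.33% in females. The probes were that of Hsd3b7, at 0.1 mg/kg in males (-0.44) and females (-0.44) and at 0.5 mg/kg in females (-0.53), and that of Cyp7a1 in females at 0.1 mg/kg. The log2 fold changes of the 9 genes ran from -0.44 to 0.69 in males and from -0.44 to 1.26 in females at 0.1 mg/kg, and from -0.41 to 0.63 and from -0.53 to 0.70 at 0.5 mg/kg. The largest of these was Cyp7a1 in females at 0.1 mg/kg, at 1.26 ± 0.58. The 5 females had 96.5, 112, 174, 313 and 393 CPM, beside 31.4 to 168 CPM in controls, and these ranges overlapped.

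**Figure D2:**
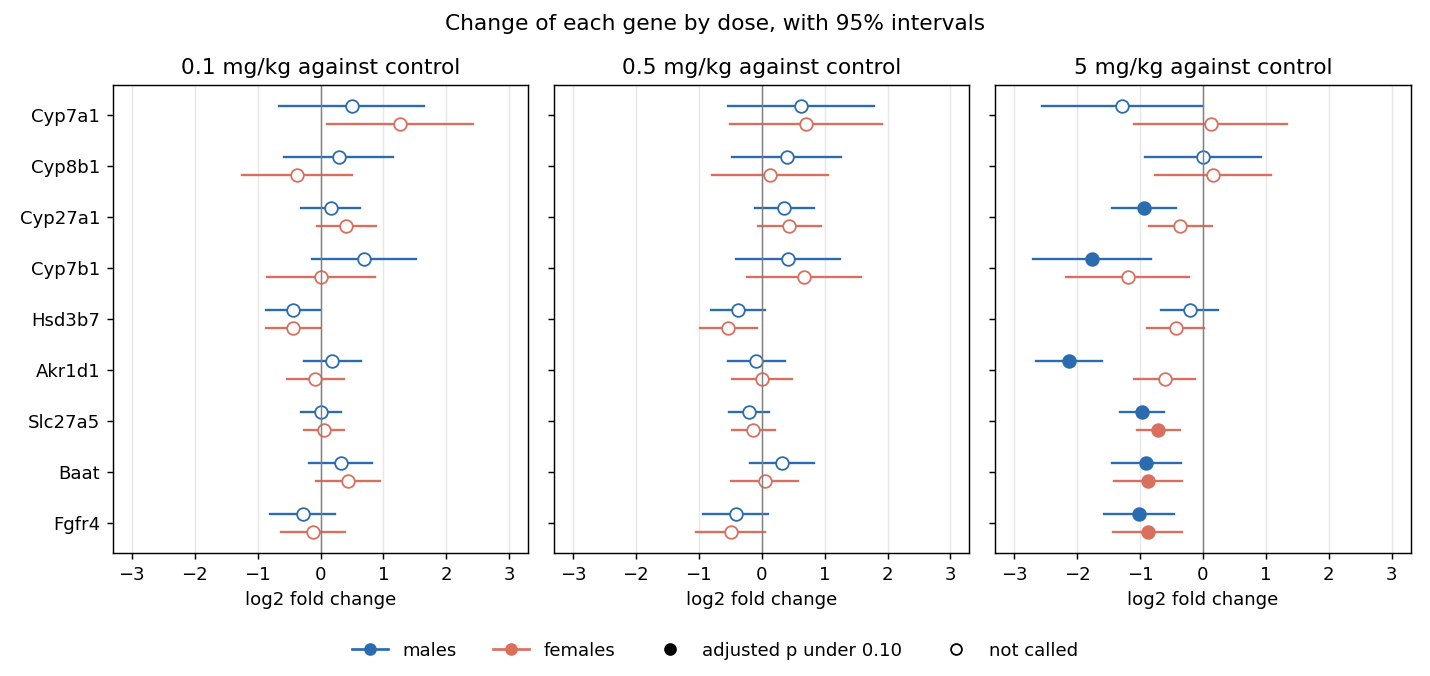
Log2 fold change against the control of the same sex (x axis) of the most abundant probe of the 9 genes (y axis) at 3 doses, with 95% intervals; blue is males, red is females and a filled point is an adjusted p under 0.10. All points at 0.1 and 0.5 mg/kg are open, and at 5 mg/kg 6 male and 3 female points are filled, all below 0.

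The step from 0.5 to 5 mg/kg, which shares the 5 mg/kg mice with the comparison above, was tested directly. In males 6 of the 11 probes were lower at 5 than at 0.5 mg/kg, against 8.73% called and 5.57% lowered over all probes. Cyp7b1 was lower by -2.19 ± 0.47 (log2, adjusted p = 0.0030), Akr1d1 by -2.05 ± 0.26 (7.19e-07), Cyp27a1 by -1.30 ± 0.26 (0.0011), Baat by -1.22 ± 0.27 (0.0047) and Slc27a5 by -0.77 ± 0.17 (0.0042). In each of these 5 every male at 5 mg/kg lay below every male at the lower dose, which held for 2.67% of all probes. Without the 4 smallest libraries Baat was at -0.93 and not called (adjusted p = 0.122). Cyp7a1 was lower by -1.91 ± 0.64 (adjusted p = 0.0741), but this call was lost without any 1 of 3 mice, in the robust fit (adjusted p = 0.14), and without the 4 smallest libraries (-2.17, adjusted p = 0.198). The 5 males at 0.5 mg/kg had 42.9, 76.5, 117, 178 and 546 CPM, and without the highest, replicate 5, the log2 difference was -1.06 (adjusted p = 0.304). Without replicate 3 at 5 mg/kg it was -1.70 (adjusted p = 0.178) and without replicate 4 it was -1.83 (adjusted p = 0.124). Fgfr4 differed by -0.60 ± 0.28 and was not called, except without replicate 2 at 5 mg/kg, where it was -0.88 (adjusted p = 0.0740).

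In females only Cyp7b1 was lower at 5 than at 0.5 mg/kg, by -1.87 ± 0.50 (log2, adjusted p = 0.0523), against 1.48% called and 0.84% lowered over all probes. The females at 0.5 mg/kg had 7.20, 7.50, 10.6 and 13.1 CPM, all above the 4 at 5 mg/kg. The call was lost without replicate 3 (0.115) or 4 (0.192) at 0.5 mg/kg or replicate 2 (0.236), 3 (0.235) or 4 (0.176) at 5 mg/kg, with the adjusted p in brackets. It was also lost in the robust fit (adjusted p = 0.117) and with counts thinned to the smallest library (-1.55, adjusted p = 0.27), where Slc27a5 was called instead, at -0.58 in both (adjusted p = 0.092 and 0.0899). Baat was lower by -0.92 ± 0.28 (adjusted p = 0.131) and Cyp27a1 by -0.80 ± 0.26 (adjusted p = 0.195), neither of them called. In these 3 genes no female at 5 mg/kg reached one at the lower dose, which held for 3.73% of all probes. Slc27a5, at -0.58 ± 0.18 (adjusted p = 0.142), was not called either. Without replicate 3 at 0.5 mg/kg Baat was called at -1.05 (adjusted p = 0.0867) and Slc27a5 at -0.68 (adjusted p = 0.0688), and without replicate 4 at 5 mg/kg Baat was called at -1.09 (adjusted p = 0.0778).

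The difference between the sexes in the change at 5 mg/kg was tested as an interaction. It was called for 1 of the 11 probes, Akr1d1, and for 0.63% of all probes. The fall of Akr1d1 was larger in males than in females by -1.52 ± 0.34 (log2, adjusted p = 0.0252). Without female replicate 4 at 5 mg/kg the difference was -1.30 (adjusted p = 0.101). For the other 10 probes it was not called. Cyp7a1 gave -1.41 ± 0.86 (adjusted p = 0.609), with an interval from -3.15 to 0.33, and Cyp27a1 gave -0.58 ± 0.35 (adjusted p = 0.6). For the genes called in both sexes the difference was -0.26 ± 0.24 for Slc27a5, -0.03 ± 0.38 for Baat and -0.14 ± 0.38 for Fgfr4, with intervals from -0.74 to 0.22, from -0.79 to 0.73 and from -0.91 to 0.63. At 0.1 and 0.5 mg/kg no probe of the 9 genes was called in the interaction, by edgeR or by DESeq2, beside 0% and 0.0108% of all probes in edgeR. None had an unadjusted p under 0.05, which 4.46% and 5.13% of all probes had.

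In the vehicle groups, 3 of the genes differed between male and female controls, in 4 of the 11 probes, against 2.6% called over all probes. Cyp7b1 was higher in males by 3.07 ± 0.45 (log2, adjusted p = 6.04e-06), at 50.5 ± 32.7 CPM (SD, n = 5) against 6.01 ± 1.36 (n = 5), without overlap. At 5 mg/kg the 4 males, at 6.13 to 21.7 CPM, still had more Cyp7b1 than the 4 females, at 1.55 to 5.13 CPM. Cyp8b1 was higher in males by 1.70 ± 0.44 (adjusted p = 0.0272) with 1 probe and 2.03 ± 0.46 (adjusted p = 0.0073) with the other. The female controls had 112, 129, 137, 154 and 399 CPM of the first probe, of which the highest, replicate 3, lay within the male range. Without female control replicate 2 or 4 the first probe was just short of the threshold (1.59, adjusted p = 0.101 and 0.100), as it was in the robust fit (1.70, adjusted p = 0.1). Akr1d1 was lower in males by -0.75 ± 0.22 (adjusted p = 0.0817), and every male control was below every female control. This call was lost in 8 of 10 fits with 1 control left out, namely each of the 5 female controls and male controls 2, 3 and 5, with log2 values from -0.86 to -0.60 over all alternatives and an adjusted p of at most 0.323. The other 6 genes were not called, with log2 differences from -0.27 to 0.45.

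**Figure D3:**
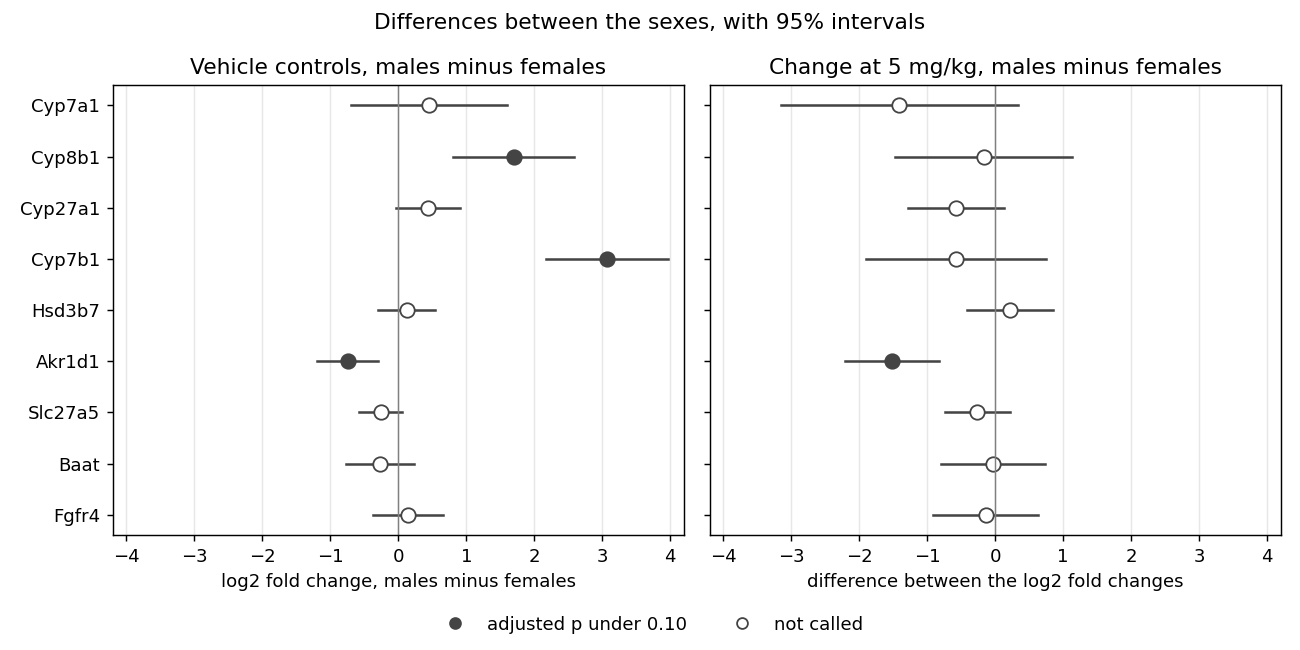
Differences between the sexes for the most abundant probe of the 9 genes (y axis), with 95% intervals; the left panel gives male minus female controls and the right panel the log2 fold change at 5 mg/kg in males minus that in females. Cyp8b1 and Cyp7b1 are filled above 0 and Akr1d1 below 0 at left (adjusted p under 0.10), and only Akr1d1 is filled at right.

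Other enzymes of the pathway did not all move the same way. Of 12 listed, 10 were tested, since Ch25h and Acot8 had almost no counts. In males at 5 mg/kg 4 were raised and 3 lowered, in females 5 raised and 1 lowered, by at least 1 probe. Over all probes 12.7% were called and 8.49% lowered in males, and 4.52% and 2.26% in females. Cyp2c70, which makes the muricholic acids of the mouse, fell from 593 to 1099 CPM in control males to 81.4 to 201 CPM at 5 mg/kg, by -2.45 ± 0.24 (log2, adjusted p = 7.48e-10). In females it fell from 1194 to 1840.2 CPM to 518 to 708 CPM, by -1.31 ± 0.23 (adjusted p = 0.000136), and neither sex overlapped its controls. Cyp39a1, which hydroxylates an oxysterol from brain cholesterol, had 26 to 89 counts in the control males and 0 to 2 counts at 5 mg/kg (adjusted p = 6.92e-05). No fold is given for it, since counts this low set it by the prior of the fit.

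Among the raised genes were some of the peroxisomal shortening of the side chain. Abcd3, a peroxisomal membrane transporter that also carries fatty acids, rose from 25.3 to 73.2 CPM in control males to 149.5 to 169.5 CPM at 5 mg/kg, by 1.55 ± 0.23 (adjusted p = 4.86e-06), and in females by 1.62 ± 0.23 (adjusted p = 2.81e-06). Abcd3 was also raised in males at 0.5 mg/kg, by 1.08 ± 0.22 (adjusted p = 0.0072), a dose at which none of the 9 genes was called. Hsd17b4, the bifunctional enzyme of peroxisomal beta-oxidation, rose by 0.81 ± 0.15 (adjusted p = 0.000143) in males and by 1.09 ± 0.15 (adjusted p = 1.27e-06) in females. Scp2, the thiolase of the last step, has 4 probes. With 1 of these probes it was called in females, at 0.71 ± 0.14 (adjusted p = 0.000441), and not in males, at 0.03 ± 0.14. The sex difference for this Scp2 probe was -0.68 ± 0.19 and was not called (adjusted p = 0.131), while it was called for the other 3 Scp2 probes, at -0.82, -1.58 and -1.67. The changes of those 3 probes within each sex are not given here, so these differences do not show in which sex they moved.

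Among the 9 listed regulators, 8 were tested and Fgf15, a gene of the intestine, had counts in 3 of 37 mice. In males at 5 mg/kg 3 were lowered and in females 1 by at least 1 probe, beside 8.49% and 2.26% of all probes, and none was raised. Nr1h4 fell in males by -0.53 ± 0.19 (adjusted p = 0.0849) with its more abundant probe and by -1.31 ± 0.37 (adjusted p = 0.0203) with the other. Rxra, the partner of many nuclear receptors, fell in females by -0.55 ± 0.16 (adjusted p = 0.0437) with its more abundant probe, and by -0.58 ± 0.15 (adjusted p = 0.0174) with the other, which also fell in males by -0.64 ± 0.15 (adjusted p = 0.0044). Ppara was called in males with 1 of its 3 probes, at -1.0 ± 0.32 (adjusted p = 0.0409). Klb, the partner of Fgfr4, was at -0.52 ± 0.35 in males and -0.49 ± 0.34 in females and not called, and Nr0b2 was at -1.44 ± 0.92 and 1.04 ± 0.86.

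**Figure D4:**
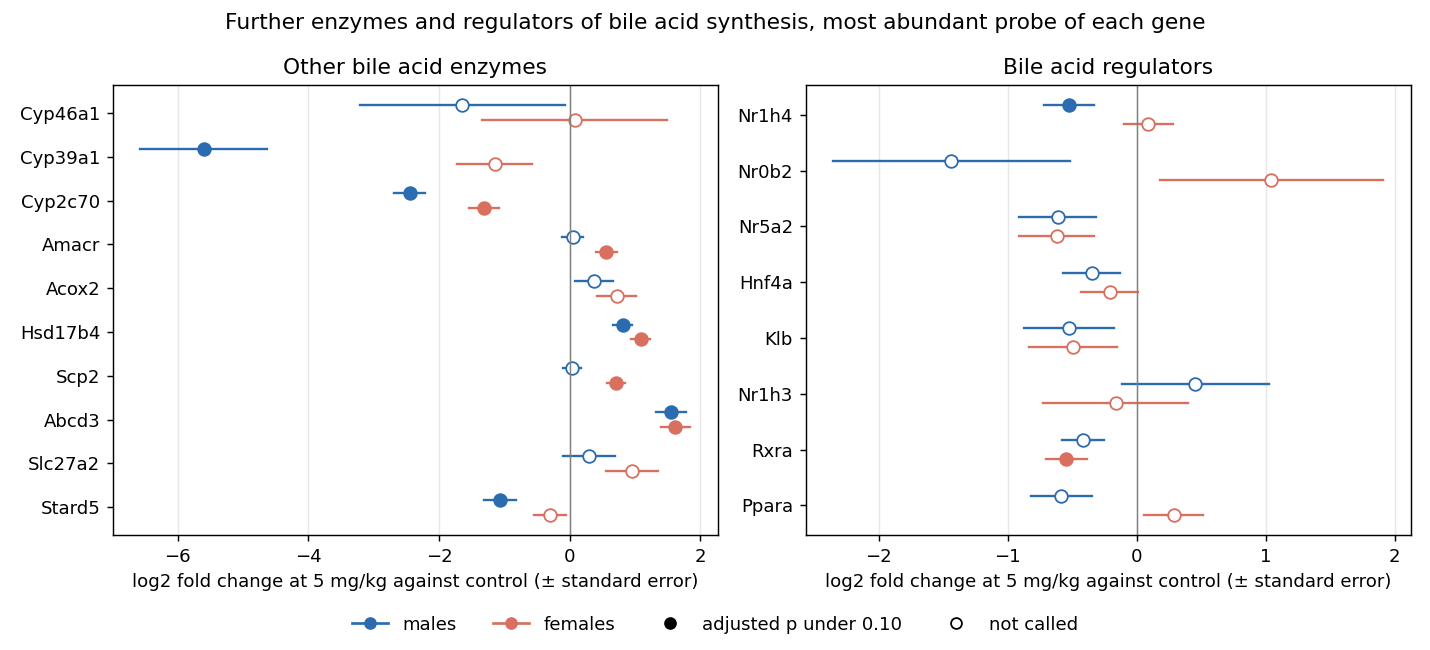
Log2 fold change at 5 mg/kg against control (x axis, ± standard error) of the most abundant probe of 10 further enzymes (left) and 8 regulators (right) of bile acid synthesis; blue is males, red is females and a filled point is an adjusted p under 0.10. Cyp2c70 is low and Abcd3 and Hsd17b4 are high in both sexes, and the Cyp39a1 point of males rests on 0 to 2 counts in each treated mouse.

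Genes that mark position in the liver lobule and sex moved in the same comparisons. Of 9 pericentral genes 6 were lowered in males at 5 mg/kg and 3 in females, and of 7 tested periportal genes 5 and 2, each by at least 1 probe, beside 8.49% and 2.26% of all probes. The summed CPM of the pericentral genes ran from 9409 to 16605 in control males and from 3664 to 7767 at 5 mg/kg, and that of the periportal genes from 4345 to 8649 and from 2385 to 3035. Much of the pericentral sum was 1 gene, since 1 probe of Cyp2e1 alone averaged 5501 CPM in control males and 2300 at 5 mg/kg. In the controls, 5 of 8 listed male-biased liver genes were called higher in males and 8 of 8 female-biased genes higher in females, by at least 1 probe, beside 2.6% of all probes called. Of the 8 male-biased genes 4 were lowered in males at 5 mg/kg, among them Mup20 at -1.41 (adjusted p = 0.0233). Of 8 female-biased genes 3 were raised in these males, among them Cyp2b9 at 3.91 (adjusted p = 1.91e-08). Over all probes 12.7% were called in males at 5 mg/kg and 4.52% in females. In females at 5 mg/kg 4 of the 8 female-biased genes were lowered, while of the male-biased genes 1 was raised and 1 lowered. Their part in the values of the 9 genes was not tested.

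The hepatocyte markers were present in every mouse. Of 6, 4 were lowered in males at 5 mg/kg and 3 in females by at least 1 probe, beside 8.49% and 2.26% of all probes. The median log2 fold change of their most abundant probes was -0.79 in males, with a range from -2.86 to -0.16. In females it was -0.39, with a range from -0.69 to 0.38. Their summed CPM ran from 16713 to 22069 in control males and from 13516 to 15458 at 5 mg/kg. In females it ran from 19667 to 27438 in controls and from 18487 to 20166 at 5 mg/kg. Alb itself was not called, at -0.16 in males and -0.25 in females. Of the markers of other liver cells, 3 cholangiocyte, 6 macrophage, 6 stellate, 6 endothelial and 4 lymphocyte genes were tested. At 5 mg/kg 1 was called, Kdr of endothelium, at -0.95 in males (adjusted p = 0.0708). Over all probes 12.7% were called in males at this dose and 4.52% in females. Detection differed between the markers of a cell type. Of the cholangiocyte markers, Spp1 had counts in 37 of 37 mice, Krt19 in 28, Krt7 in 22, Cftr in 10, Sox9 in 6 and Epcam in 1. Of the lymphocyte markers, Ptprc had counts in 37 mice, Cd79a in 31, Cd3e and Cd3g in 27 each, Ms4a1 in 8 and Cd8a in 3. The summed CPM of the stellate markers ran from 154 to 448 in control males and from 316 to 448 at 5 mg/kg, and that of the macrophage markers from 43.8 to 163 and from 27.8 to 140. The part of these cells in the results was not tested.

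Some genes followed the called members closely over the 37 mice. Pearson's r of log2 CPM, after the mean of each sex was taken out, is given as a description: the mice share dose groups and libraries, and no p is attached. For Akr1d1 the closest were Cyp2c54 (0.88), Cyp2c29 (0.87) and Fggy (0.87). For Slc27a5 they were Gm45753 (0.91), F10 (0.89), which encodes coagulation factor X, and Ctsh (0.88). For Baat they were Ghr, the growth hormone receptor (0.88), Cfhr2 (0.88) and Amy1 (0.86). For Fgfr4 they were Serpina3m (0.82), Ece1 (0.79) and the periportal gene Gls2 (0.79).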

How the data were processed

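The authors' counts were whole numbers of reads per TempO-Seq probe and mouse, deposited without normalization. Per the labels, Bowtie and bcl2fastq 2.17.1.14 were among the tools of the submitters, and the genome build for the probes is not given in the sources used here. The authors had removed 3 of 40 libraries for low depth or few detected probes, so 37 were analysed. From these counts, probes were filtered with filterByExpr, scaled by TMM and fitted with the quasi-likelihood test of edgeR 4.0.16 in R 4.3.3, with 1 mean for each of the 8 groups. P-values were adjusted by Benjamini-Hochberg over 18570 probes, with a threshold of 0.10. CPM used the total of the tested probes times the TMM factor. The SE is the log2 fold change divided by the root of its F, and the intervals are at 95%. DESeq2 1.42.0, other scalings, filters and fits, and leaving out each mouse were the alternatives. Both count tests were tested on simulated counts. The deposited counts of mice in a group differed by far more than sampling noise, so no library was taken as a duplicate. Replicate numbers follow the order of deposit and pair nothing. A gene with several probes is given by its probe with the most counts. In the counts of list genes a gene counts if any of its probes was called. The shares beside them are of single probes and so are not a like measure. Per-mouse values were given for members called at a dose and, chosen after their values were seen, for Cyp7a1 and Cyp8b1. Other list genes were named when called at a dose, at most 5 per list by smallest adjusted p. Klb, Nr0b2, Alb, Kdr and the cholangiocyte and lymphocyte markers were named after their values were seen. Closest genes were named for the 3 members called in both sexes and for the one with the smallest adjusted p. The members, lists and tests were chosen with earlier results of these data known. Gene positions are from GENCODE M21 (GRCm38).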

Additional observations from a re-analysis of the deposited data

Results flagged for a closer look

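Over 88 sets of a probe and a group, 6 held a mouse that stood apart from the rest of its group by Dixon's test, which chance gives in about 1 group in 20. Cyp27a1 had 169 CPM in female replicate 3 at 0.1 mg/kg, where the next mouse had 123. Cyp7a1 had 546 CPM in male replicate 5 at 0.5 mg/kg, where the next had 178. Cyp7b1 had 5.13 CPM in female replicate 1 at 5 mg/kg, where the next had 2.02. Both Cyp8b1 probes were highest in female control replicate 3, at 399 CPM with a next value of 154, and at 78.5 CPM with a next value of 34.7. Slc27a5 was lowest in male replicate 1 at 5 mg/kg, at 349 CPM with a next value of 405. Between the sexes, the change of Akr1d1 at 5 mg/kg differed by -1.52 on the log2 scale by the interaction test (adjusted p = 0.0252).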

How the results depend on the processing

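In males at 5 mg/kg the count of 6 lowered probes was 5 to 6 with 1 mouse left out, and 5 without the 4 smallest libraries, an alternative chosen after seeing the data, under which Baat was at -0.61 (adjusted p = 0.277). With no filter on low counts Cyp7a1 was called in these males as well. The count of 3 in females at 5 mg/kg became 1 at an adjusted p under 0.05, and 1 to 4 with 1 mouse left out. Akr1d1 was called in these females as well with DESeq2 and with each sex fitted apart. The count of 1 in females between 0.5 and 5 mg/kg became 0 at an adjusted p under 0.05, 2 with no filter or with the probes of a gene summed, 3 with DESeq2 size factors in edgeR or a mean of at least 10 counts, 4 with DESeq2, with each sex fitted apart or without the small libraries, and 0 to 2 with 1 mouse left out. The interaction count of 1 at 5 mg/kg was 0 to 1 and the count of 4 in controls was 2 to 4 with 1 mouse left out, and that of 6 in males between 0.5 and 5 mg/kg was 5 to 7, and 4 without the 4 smallest libraries. In females between these doses the robust fit and the thinned counts also gave 1, but Slc27a5 in place of Cyp7b1. Of 1044 values of single genes under the other alternatives, 13 lost their call, 20 gained one and 0 reversed, and of 1269 with 1 mouse left out 30, 6 and 0. Most of these values belong to genes and comparisons without a call in the main fit, which had none to lose. The lost calls are therefore a larger share of the called values than of these totals. The median over all probes in males at 5 mg/kg was -0.12 with TMM and -0.03 with DESeq2 size factors. No paired analysis was made, since each mouse gave 1 library in 1 group and the labels name no pairs of mice.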
